A study of Mus musculus with 6 samples.

Results

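Ephrins and Eph receptors are contact signals: the ligand and the receptor both sit in the membrane of neighbouring cells. The 8 genes described here are 4 ephrin ligands (Efna1, Efna5, Efnb1, Efnb2) and 4 Eph receptors (Epha4, Epha5, Ephb1, Ephb4), taken by symbol out of the 32285 genes measured. A-type ephrins are held by a lipid anchor and bind mainly EphA receptors. B-type ephrins span the membrane, bind mainly EphB receptors and can also signal back into the cell that carries them. EphA4 binds ligands of both types. In blood vessels Efnb2 is the textbook gene of arteries and Ephb4 that of veins, and in the adult subventricular zone, a niche of neural stem cells beside the lateral ventricle, this system is known for regulating cell division and migration of neuroblasts.

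Single cells were sorted from cortex and subventricular zone of mice aged 8 to 12 weeks, as endothelial cells (CD31+Glast-CD45-) and as neural stem and progenitor cells (Glast+CD31-CD45-), and their RNA was counted as unique molecules (UMIs). The 6 libraries form 3 groups of 2: ECiKO (Cx43ECiKO, titled Vecad), GlastiKO (Cx43GlastiKO, titled Glast) and control (Cx43flox/flox, titled CT). By their names the first 2 are knockouts of connexin 43 (Gja1) in endothelial cells and in Glast cells. The drivers of the deletion, any inducing agent and whether cells of several mice were pooled are not given in the sources used here. The title of the study concerns neurovascular contact through connexin 43, and the comparisons below ask which vascular and neural cells carry each ligand and receptor and whether the levels differed with genotype.

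The libraries held between 1735247 UMIs (ECiKO 1) and 14859187 UMIs (GlastiKO 2), and 6274 cells were used, of which 5939 were assigned to a class by marker genes that include no ephrin or Eph gene. The 2 libraries of a group differed in content: the libraries numbered 1 held 375, 440 and 706 endothelial-like cells in ECiKO, GlastiKO and control and at most 5 astroglial-like cells, whereas those numbered 2 held 21, 63 and 44 endothelial-like cells and most of the glia. ECiKO 2 stood apart in depth, with a median of 786 UMIs per cell against 2792 to 10792 in the other libraries, and 9.79% of its cells had no class, against 1.28% to 3.36% elsewhere. Library pairs shared 5 cell barcodes in all. All 16 endothelial markers were detected in the endothelial-like cells of every library and all 11 astroglial markers in the astroglial-like cells of the libraries numbered 2. The targeted gene did not follow the labels: endothelial-like cells had 224 and 209 CPM of Gja1 in the libraries labelled ECiKO, against 91.0 and 110 CPM in control, and astroglial-like cells had 2522 CPM in GlastiKO 2 and 2561 CPM in control 2. CPM is the number of UMIs of a gene per 1000000 UMIs of all cells of a class in a library. Where the 3′ tags of Gja1 lie relative to the floxed part is not given in the sources used here, so its RNA is a limited check, and each genotype below is the one a library is labelled with.

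The 250 bases upstream of the annotated start are shown for 4 genes around which the results are ordered. They are the vascular pair Efnb2 and Ephb4, and the receptors Ephb1 and Epha5. Among classes of at least 20 cells, the mean level of Ephb1 was highest in oligodendrocyte-like cells and that of Epha5 in astroglial-like cells. Each window is read 5′ to 3′ on the strand of its gene from RefSeq sequence of GRCm38.p6. Capitals mark CCAAT boxes (CCAAT, or ATTGG for the opposite strand) and GC boxes (GGGCGG, or CCGCCC), which do not overlap each other here.
Efnb2, chr8:8661243-8661492, minus strand: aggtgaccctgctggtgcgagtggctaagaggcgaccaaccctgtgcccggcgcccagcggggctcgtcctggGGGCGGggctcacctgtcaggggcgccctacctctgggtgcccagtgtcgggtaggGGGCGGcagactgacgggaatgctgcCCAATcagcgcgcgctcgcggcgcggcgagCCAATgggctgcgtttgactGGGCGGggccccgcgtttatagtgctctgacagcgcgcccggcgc
Ephb4, chr5:137349859-137350108, plus strand: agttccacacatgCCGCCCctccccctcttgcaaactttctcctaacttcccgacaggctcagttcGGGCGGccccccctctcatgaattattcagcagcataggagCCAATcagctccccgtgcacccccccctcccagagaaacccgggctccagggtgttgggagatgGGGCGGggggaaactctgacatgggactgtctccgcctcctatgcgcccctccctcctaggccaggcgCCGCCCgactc
Ephb1, chr9:102354694-102354943, minus strand: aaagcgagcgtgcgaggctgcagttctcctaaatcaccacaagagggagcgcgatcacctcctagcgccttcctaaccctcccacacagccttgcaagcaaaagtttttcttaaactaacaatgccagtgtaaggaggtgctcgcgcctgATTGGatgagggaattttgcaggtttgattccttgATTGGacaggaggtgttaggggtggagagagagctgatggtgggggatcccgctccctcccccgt
Epha5, chr5:84417383-84417632, minus strand: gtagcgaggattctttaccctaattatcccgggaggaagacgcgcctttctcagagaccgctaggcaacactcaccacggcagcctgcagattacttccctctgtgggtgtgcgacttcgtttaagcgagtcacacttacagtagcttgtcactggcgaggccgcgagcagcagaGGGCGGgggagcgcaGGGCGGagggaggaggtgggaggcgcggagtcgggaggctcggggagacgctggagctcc

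The Efnb2 window held 2 CCAAT boxes and 3 GC boxes, and that of Ephb4 held 1 and 4. The Ephb1 window held 2 CCAAT boxes and no GC box, and that of Epha5 held 2 GC boxes and no CCAAT box. Over all 32851 such windows, 33.8% held a CCAAT box and 32.7% a GC box on either strand. A match describes the letters of the window only, since no binding was measured here.

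Among the ligands, Efnb2 was carried by vessels, by part of the astroglia and by a few cells of other types. The gene lies on mouse chromosome 8 (mm10, 8617434 to 8661242). In endothelial-like cells it was measured at 127 and 105 CPM in ECiKO 1 and 2, at 77.8 and 52.3 CPM in GlastiKO 1 and 2, and at 111 and 84.5 CPM in control 1 and 2. Astroglial-like cells had 20.1, 29.1 and 11.4 CPM in ECiKO 2, GlastiKO 2 and control 2, and oligodendrocyte-like cells had 0.778, 0 and 0.861 CPM in the same libraries. All 6 endothelial-like values were above the 3 astroglial-like values, and these were above the 3 oligodendrocyte-like values. The 24 neuroblast-like cells of GlastiKO 2 (11 UMIs) and the 37 cycling cells of ECiKO 2 (7 UMIs), dividing cells by their markers, had 62.3 and 66.9 CPM, with exact 95% Poisson intervals of 31.1 to 111 and 26.9 to 138 CPM that reach the endothelial values. Outside the classes of 20 cells or more, 9 fibroblast-like cells held 11 UMIs of Efnb2 (216 CPM, interval 108 to 386). That level is above all endothelial-like values, with an interval that reaches them. Within the libraries numbered 2, endothelial-like cells exceeded astroglial-like cells in Efnb2 by 1.26 ± 0.398 on the log2 scale (SE, edgeR), from 25 and 90 UMIs. They exceeded oligodendrocyte-like cells, with 9 UMIs, by 6.80 ± 0.713. Efnb2 passed the filter on low counts in both comparisons through its endothelial-like level alone, so no p is given.

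Efnb1, the other transmembrane ligand (chromosome X, 99136130 to 99148991), was counted in vascular and neural cells alike. The neuroblast-like cells of GlastiKO 2 had 62.3 CPM (11 UMIs) and the cycling cells of ECiKO 2 had 38.2 CPM (4 UMIs), both within the range of endothelial-like cells. Endothelial-like cells had 38.3 and 52.3 CPM in ECiKO 1 and 2, 29.2 and 38.0 CPM in GlastiKO 1 and 2, and 41.1 and 84.5 CPM in control 1 and 2. Pericyte-like cells, the mural cells of capillaries, had 15.9 and 34.9 CPM in GlastiKO 1 and 2 and 7.05 CPM in control 1, from 1 to 6 UMIs each. Astroglial-like cells had 17.2, 15.5 and 7.62 CPM in ECiKO 2, GlastiKO 2 and control 2. The ranges of pericyte-like and astroglial-like cells overlapped, while all endothelial-like values were above all astroglial-like ones. The difference between endothelial-like and astroglial-like cells was 1.68 ± 0.458 on the log2 scale, and that between endothelial-like and oligodendrocyte-like cells 3.16 ± 0.580. Efnb1 passed the filter on low counts in both comparisons through its endothelial-like level, so no p is given.

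Efna1, a GPI-anchored ligand known from endothelium (chromosome 3, 89271733 to 89281142), was shared by endothelial-like and oligodendrocyte-like cells and nearly missing from astroglia. It was measured at 65.0 and 26.2 CPM in the endothelial-like cells of ECiKO 1 and 2, at 59.0 and 42.8 CPM in those of GlastiKO, and at 81.8 and 50.7 CPM in those of control. Oligodendrocyte-like cells had 23.3, 19.3 and 22.8 CPM in ECiKO 2, GlastiKO 2 and control 2, and the astroglial-like cells of these libraries had 0, 0 and 2 UMIs among 4316423. The lowest endothelial-like value rests on 1 UMI, and within the libraries numbered 2 the endothelial-like and oligodendrocyte-like levels were not separated by the test (log2 difference 0.49 ± 0.476, adjusted p = 0.427). Between endothelial-like and astroglial-like cells Efna1 did not pass the filter on low counts, and 16 against 2 UMIs gave a CPM ratio of 94.1 with an exact 95% interval of 22.1 to 844.

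Efna5, an A-type ligand known from axon guidance (chromosome 17, 62604184 to 62881317), was the rarest of the ligands and was counted mostly in astroglia. Astroglial-like cells had 8.60, 21.1 and 16.9 CPM in ECiKO 2, GlastiKO 2 and control 2, from 3, 45 and 31 UMIs. Oligodendrocyte-like cells held no UMI in any library, so the astroglial-like level was at least 131-fold higher (floor of 3 UMIs over the 3 libraries). Efna5 passed the filter on low counts through its astroglial-like level alone, so the fitted p is not given as support. Endothelial-like cells held 2 UMIs, both in GlastiKO 1, and over the libraries numbered 2 their level was at least 2.24-fold lower than that of astroglial-like cells.

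**Figure D1:**
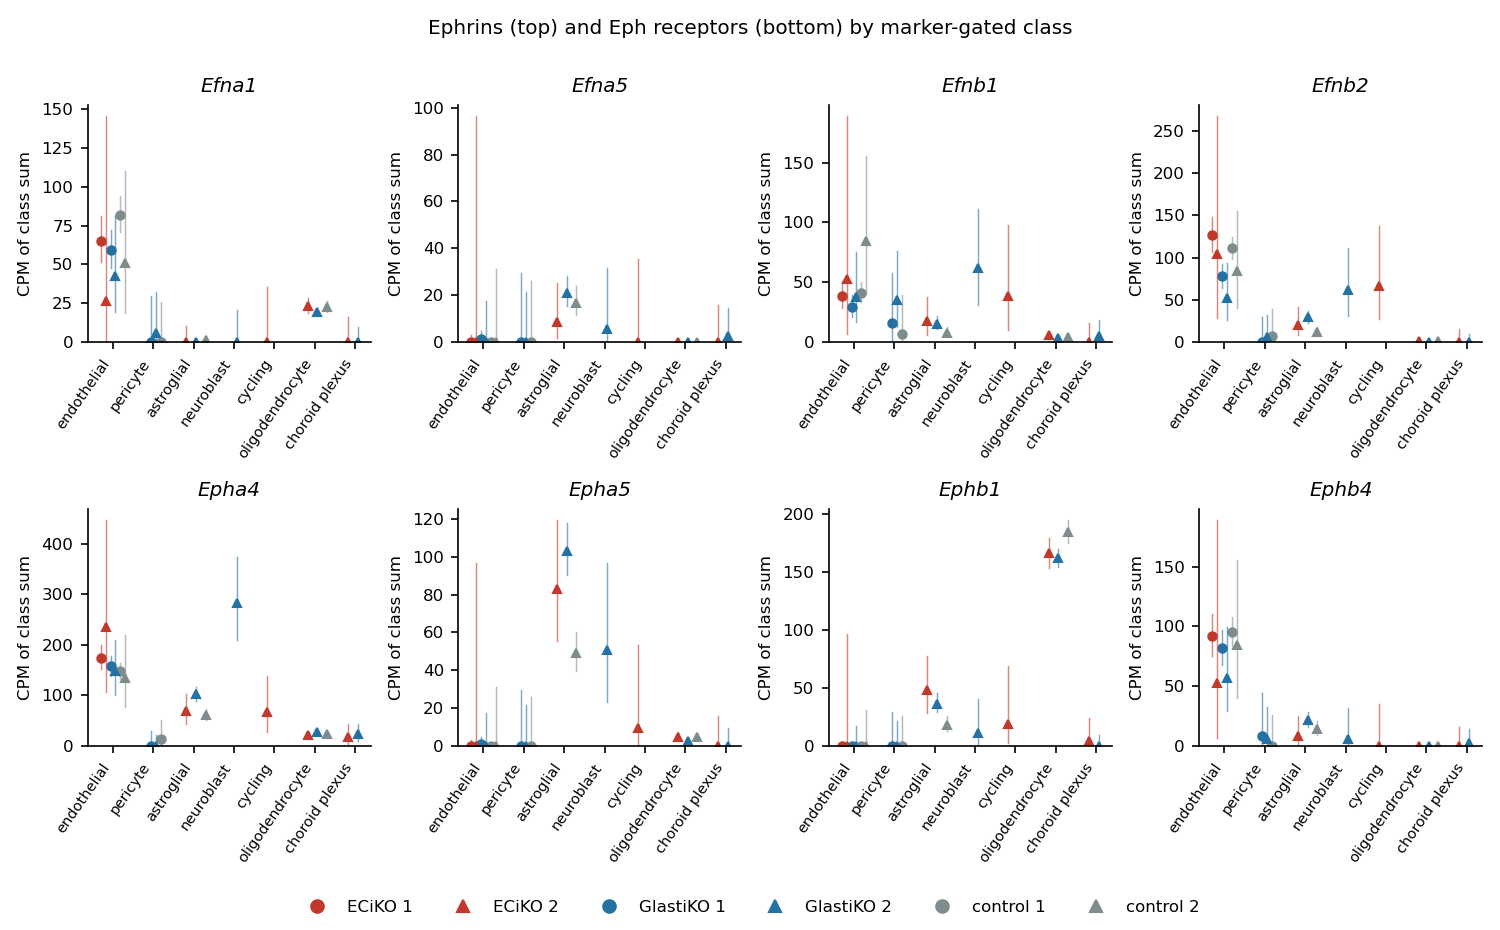
Level of each of the 8 genes (CPM of the class sum, y axis, linear from 0, own scale per panel) in the marker-gated classes on the x axis, 1 point per library with at least 20 cells of the class and a bar for the exact 95% Poisson interval. Efna1, Efnb2 and Ephb4 are highest in endothelial-like cells, Ephb1 in oligodendrocyte-like cells and Epha5 and Efna5 in astroglial-like cells.

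Among the receptors, Ephb4, the venous partner of ephrin-B2, followed the vessels. Endothelial-like cells had 91.6 and 52.3 CPM in ECiKO 1 and 2, 81.7 and 57.1 CPM in GlastiKO 1 and 2, and 95.0 and 84.5 CPM in control 1 and 2. Astroglial-like cells had 8.60, 21.6 and 14.2 CPM in ECiKO 2, GlastiKO 2 and control 2, and the 3 oligodendrocyte-like sums held 1 UMI together. The values of these 3 classes did not overlap. Ephb4 in endothelial-like cells exceeded the astroglial-like level by 1.48 ± 0.414 on the log2 scale. The gene passed the filter on low counts through its endothelial-like level alone, so no p is given. The 24 endothelial-like UMIs against 1 oligodendrocyte-like UMI gave a CPM ratio of 1406 with an exact interval of 229 to 57808. In mm10 the 3′ end of Ephb4 (chromosome 5, 137350109 to 137378669) shares 33 bases with the antisense gene Zan, which had 18, 1 and 15 UMIs in endothelial-like, astroglial-like and oligodendrocyte-like cells.

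The sum of endothelial markers in astroglial-like cells was 8.60, 7.51 and 12.0 CPM in ECiKO 2, GlastiKO 2 and control 2, with Cdh5, Tek, Tie1, Kdr, Ly6c1 and Erg at 0 in all 3. The same sum in their endothelial-like cells was 34061, 33353 and 35120 CPM. In astroglial-like cells Ephb4 alone was thus at or above the whole endothelial marker list in all 3 libraries. Efnb2 was above it in ECiKO 2 and GlastiKO 2, with 11.4 against 12.0 CPM in control 2. The gate for astroglial-like cells required a lead over the endothelial list, which itself keeps that sum low. Whether RNA of endothelial cells reached these cells was not tested.

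Ephb1, a receptor for B-type ephrins (chromosome 9, 101922128 to 102354693), was highest in oligodendrocyte-like cells. Oligodendrocyte-like cells had 166, 162 and 185 CPM in ECiKO 2, GlastiKO 2 and control 2, from 641, 1728 and 1288 UMIs. Astroglial-like cells had 48.8, 36.6 and 18.5 CPM in these libraries. No UMI of Ephb1 was counted in the endothelial-like cells of any of the 6 libraries or in any pericyte-like sum, which allows up to 1.20 CPM in control 1, the deepest endothelial-like sum, and up to 78.5 CPM in ECiKO 2, the shallowest. Over the libraries numbered 2, the endothelial-like level was at least 20.8-fold lower than the oligodendrocyte-like one (0 against 3657 UMIs) and at least 3.66-fold lower than the astroglial-like one (0 against 129 UMIs). Ephb1 entered the first comparison through its oligodendrocyte-like level alone, so no p is given. In astroglial-like cells Ephb1 was lower than in oligodendrocyte-like cells by 2.74 ± 0.203 on the log2 scale (adjusted p = 2.39e-08).

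The Ephb1 UMIs of astroglial-like cells amounted to 10.0% to 29.3% of the oligodendrocyte-like level of the same library. Efnb3, a B-type ephrin at 535 to 616 CPM in oligodendrocyte-like cells, reached 0.536% to 1.06% of that level in astroglial-like cells, and the sum of the 12 oligodendrocyte markers 0.518% to 0.693%. The share of Ephb1 was above both in every library, whereas Efna1, also an oligodendrocyte-like gene, stood at 0% to 4.77% there. The gate likewise keeps the sum of oligodendrocyte markers low in astroglial-like cells.

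Within oligodendrocyte-like cells Ephb1 differed between clusters. In the cluster led by Enpp6, Slco3a1 and Itgb4 it had 280, 234 and 244 CPM in ECiKO 2, GlastiKO 2 and control 2. In the cluster led by Kndc1, Nfasc and Tmod1 it had 156, 124 and 147 CPM. The 95% Poisson intervals of the 2 clusters did not overlap in any of the 3 libraries, with median depths of 14883 to 20285 UMIs per cell in the first cluster and 12861 to 16957 in the second. The clusters were drawn from the same cells, so this is a description without a test.

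Epha5, a receptor for A-type ephrins (chromosome 5, 84054761 to 84417382), was higher in astroglial-like than in oligodendrocyte-like cells, and highest in a few cells of other neural types. Astroglial-like cells had 83.2, 103 and 49.0 CPM in ECiKO 2, GlastiKO 2 and control 2, against 4.67, 2.81 and 5.02 CPM in oligodendrocyte-like cells. The values did not overlap, and the log2 difference was 4.04 ± 0.283. Epha5 passed the filter on low counts through its astroglial-like level alone, so no p is given. Endothelial-like cells held 2 UMIs among those of all 6 libraries, both in GlastiKO 1, and none in the libraries numbered 2, where their level was at least 9.61-fold lower than the astroglial-like one (0 against 339 UMIs, a comparison it entered through its astroglial-like level alone). Outside the classes of 20 cells or more, 6 oligodendrocyte precursor-like cells held 32 UMIs of Epha5 (430 CPM, exact interval 294 to 607) and 3 neuron-like cells held 20 (1465 CPM, 895 to 2262). Both intervals lie above the astroglial-like levels.

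Epha4, the receptor that binds both types of ephrin (chromosome 1, 77367185 to 77515088), was counted in endothelial-like, neuroblast-like, astroglial-like, cycling and oligodendrocyte-like cells. It was measured at 175 and 235 CPM in the endothelial-like cells of ECiKO 1 and 2, at 158 and 147 CPM in those of GlastiKO, and at 147 and 135 CPM in those of control. Astroglial-like cells had 68.8, 102 and 61.5 CPM in ECiKO 2, GlastiKO 2 and control 2, oligodendrocyte-like cells 22.6, 27.8 and 23.8 CPM, and the neuroblast-like cells of GlastiKO 2 had 283 CPM (50 UMIs, interval 210 to 373). Endothelial-like values lay above astroglial-like ones in each library, yet the test over the 3 libraries did not pass (log2 difference 0.48 ± 0.289, adjusted p = 0.148). Without TMM factors, which rescale libraries by composition, the same difference was 0.94 (adjusted p = 0.00325), so the call depends on the scaling. Both classes were higher than oligodendrocyte-like cells, endothelial-like by 2.06 ± 0.323 (adjusted p = 1.23e-09) and astroglial-like by 1.39 ± 0.153 (adjusted p = 1.51e-06).

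In counts, 3 of the 5 genes tested between endothelial-like and astroglial-like cells were higher (Efnb1, Efnb2, Ephb4) and 1 lower (Epha5, at 0 UMIs in endothelial-like cells), where 58.2% of all 5481 genes tested passed in either direction, 23% as higher and 35.1% as lower. Their median log2 difference was 1.26, beside -0.27 over all genes. Between endothelial-like and oligodendrocyte-like cells 4 of 6 were higher (Efnb1, Efnb2, Ephb4, Epha4) and 1 lower (Ephb1), where 46.8% of 9937 genes passed, 16.3% as higher and 30.5% as lower, with a median of 2.61 beside -0.42. Between astroglial-like and oligodendrocyte-like cells all 8 passed, 6 higher and 2 lower (Efna1 and Ephb1), where 73.7% of 11363 genes passed, 37.8% as higher and 35.8% as lower, with a median of 2.72 beside 0.04. With such shares of all genes passing, the number of the 8 that passed says little, and the order of the classes for each gene carries the result. Many calls were of genes that passed the filter on low counts only through their higher class, which fixed their direction and bears on the medians. In the first comparison they include Efnb1, Efnb2, Ephb4 and Epha5. The second has Efnb1, Efnb2, Ephb4 and Ephb1 among them, and the third Efna1, Efna5, Efnb2, Ephb4 and Epha5. The split of all calls moved with scaling. Against astroglial-like cells 39.6% were higher and 60.4% lower, and without TMM factors 56.8% and 43.2%, with a median of 0.18. Against oligodendrocyte-like cells 34.8% were higher and 65.2% lower, and without TMM factors 57.1% and 42.9%, with a median of 0.16. The direction of each tested ephrin and Eph gene of the 8 was the same without TMM factors. Without ECiKO 2, the shallow library, each of the 8 genes that was tested kept its direction and its side of the threshold in these 3 comparisons, with endothelial-like over astroglial-like differences of 1.98 for Efnb1, 1.37 for Efnb2 and 1.63 for Ephb4. The comparison with astroglial-like cells rests on few endothelial-like UMIs: without control 2, Efnb1, Efnb2 and Ephb4 kept their direction at 1.06, 0.87 and 1.24 with adjusted p of 0.162, 0.175 and 0.0518. DESeq2 gave 1.76 (adjusted p = 0.0545) for Efnb1 and 1.56 (adjusted p = 0.0649) for Efnb2.

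Pericyte-like cells lacked most of the set. In the 3 libraries with at least 20 such cells (GlastiKO 1, GlastiKO 2, control 1), Efnb2 had 2 UMIs in pericyte-like cells against 409 in endothelial-like cells, a CPM ratio of 0.0474 with an exact interval of 0.0057 to 0.172, and Efna1 had 1 against 305 UMIs. Ephb4 had 2 against 376 UMIs, a CPM ratio of 0.0516 (0.0062 to 0.188), and Epha4 2 against 643 UMIs, a ratio of 0.0302 (0.0036 to 0.109). These 2 genes alone passed the filter on low counts, through their endothelial-like level, which fixed the direction of the test, so no p is given. Over all 3999 genes tested 56.8% passed, 26.1% as higher and 30.7% as lower. Efnb1 had 9 UMIs in pericyte-like cells, 6 of them in GlastiKO 2, against 156 in endothelial-like cells.

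Arterial-like and venous-like endothelial cells were told apart by markers without Efnb2 or Ephb4, in the 3 libraries numbered 1. They held 40, 52 and 81 arterial-like and 71, 117 and 177 venous-like cells in ECiKO 1, GlastiKO 1 and control 1. Efnb2 had 255, 215 and 233 CPM in arterial-like cells of ECiKO 1, GlastiKO 1 and control 1, against 33.7, 22.0 and 55.8 CPM in venous-like cells. The lowest arterial-like value was above the highest venous-like one, and the intervals did not overlap in any library. Efnb2 was higher in arterial-like cells by 2.57 ± 0.228 on the log2 scale. It passed the filter on low counts through its arterial-like level alone, so no p is given. Cells with neither subtype had 134, 73.7 and 110 CPM, between the arterial-like and venous-like levels of their own library in each case.

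Ephb4 did not show the opposite pattern in these cells. It had 87.1, 105 and 81.4 CPM in arterial-like cells of ECiKO 1, GlastiKO 1 and control 1, against 97.9, 104 and 104 CPM in venous-like cells. The ranges overlapped, and the log2 difference was -0.16 ± 0.236 (adjusted p = 0.830). Of the other genes tested, Efna1 differed by 0.58 ± 0.275 (adjusted p = 0.223), Efnb1 by 0.55 ± 0.456 (adjusted p = 0.632) and Epha4 by 0.04 ± 0.186 (adjusted p = 0.960). Thus 1 of 5 passed, Efnb2, which entered through its arterial-like level alone. Of all 5435 genes tested 8.5% passed, 4.34% as higher and 4.16% as lower.

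**Figure D2:**
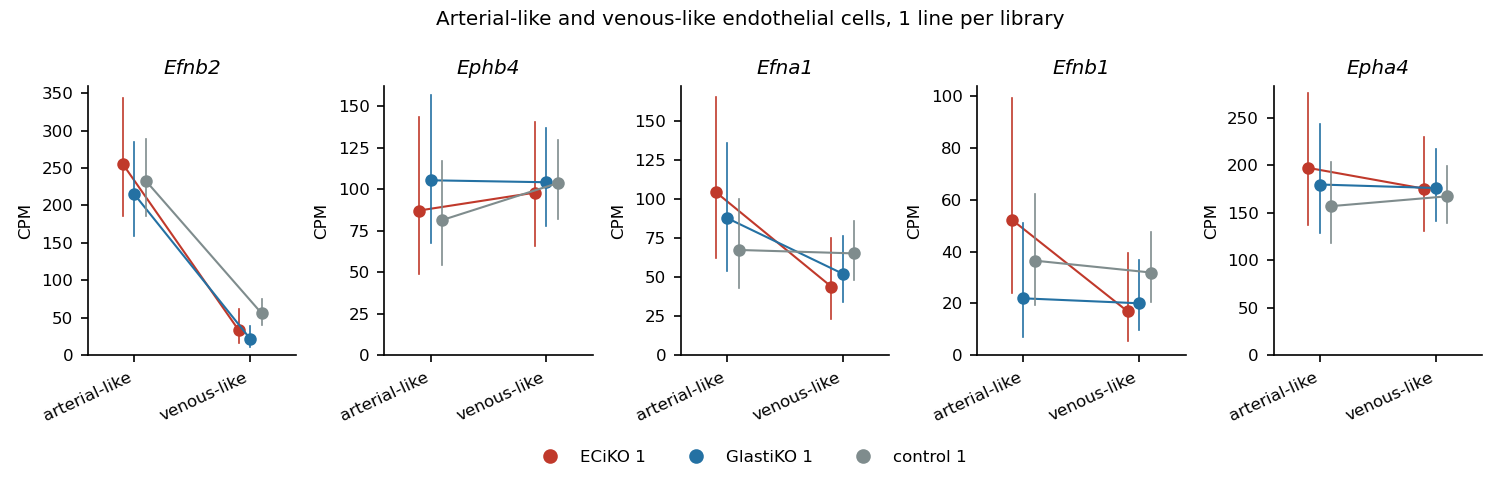
Level (CPM, y axis, linear from 0, own scale per panel) in arterial-like and venous-like endothelial cells, 1 point and line per library and a bar for the exact 95% Poisson interval. Efnb2 is at 215 to 255 CPM in arterial-like and 22.0 to 55.8 CPM in venous-like cells, while the Ephb4 intervals overlap.

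The genotype comparison in endothelial-like cells gave no call among the 5 genes tested. In the libraries labelled ECiKO against control, the log2 fold changes were -0.28 ± 0.442 for Efnb1, 0.25 ± 0.318 for Efnb2, -0.28 ± 0.364 for Efna1, -0.06 ± 0.329 for Ephb4 and 0.35 ± 0.308 for Epha4 (adjusted p = 0.99999 each). Of all 8628 genes tested 0.22% passed, 0.0232% as higher and 0.197% as lower, and 125 had an unadjusted p under 0.05. In the libraries labelled GlastiKO against the same control libraries they were -0.59 ± 0.419 for Efnb1, -0.52 ± 0.308 for Efnb2, -0.42 ± 0.340 for Efna1, -0.26 ± 0.308 for Ephb4 and 0.14 ± 0.288 for Epha4 (adjusted p = 0.9997 each), where 0.301% of genes passed, 0.0927% as higher and 0.209% as lower, and 156 had an unadjusted p under 0.05. No gene of the 5 had an unadjusted p under 0.05 in either comparison, and DESeq2 called none of them.

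Efnb2 in GlastiKO had the smallest unadjusted p of the 5 (0.0908). Its GlastiKO values of 77.8 and 52.3 CPM were below the ECiKO values of 127 and 105 CPM and the control values of 111 and 84.5 CPM. In the libraries numbered 1 the CPM ratio of GlastiKO to control was 0.701 (exact interval 0.561 to 0.872), and in those numbered 2 it was 0.619 (0.239 to 1.63), intervals that cover counting error only. Epha4 was higher in both ECiKO libraries than in all other libraries, at ratios to control of 1.19 (0.998 to 1.41) and 1.74 (0.679 to 4.19). The endothelial-like sums of the libraries numbered 2 hold 1 to 31 UMIs of each of these genes, so the standard errors above, about 0.3 to 0.4 on the log2 scale, leave changes of moderate size undetectable. The direction of some of these small changes turned when 1 library was left out: Efna1 was at 0.40 for ECiKO and 0.25 for GlastiKO without control 1, and Efnb2 was at -0.24 for ECiKO without ECiKO 1.

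**Figure D3:**
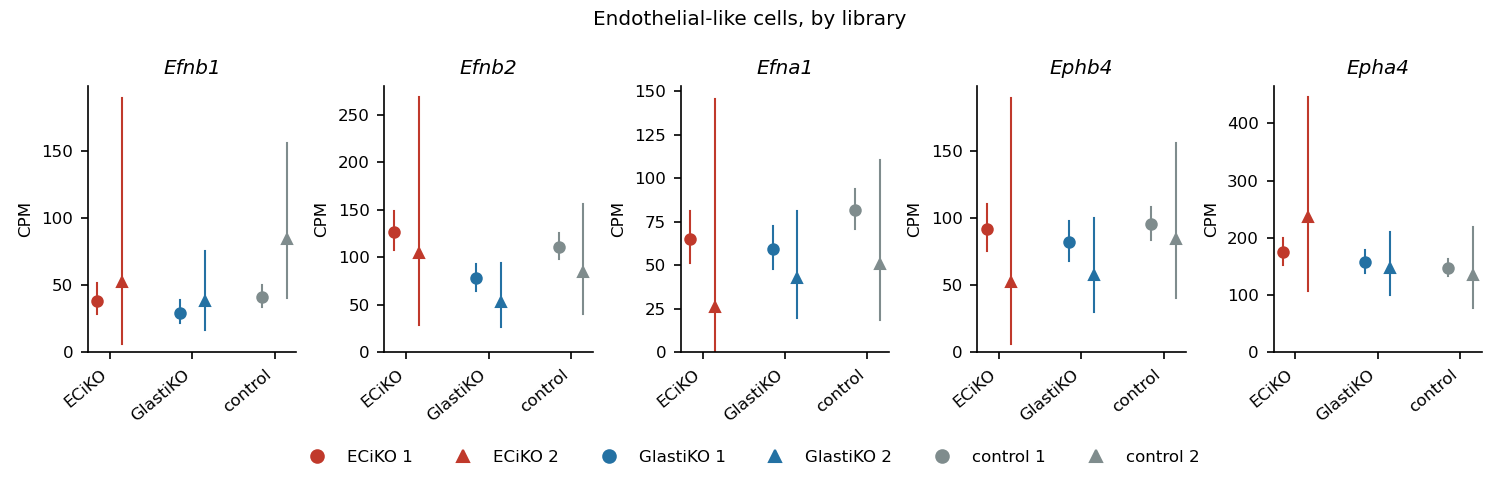
Level (CPM, y axis, linear from 0, own scale per panel) in endothelial-like cells by group, 1 point per library (circle for number 1, triangle for number 2) with the exact 95% Poisson interval. The groups overlap for Efnb1, Efna1 and Ephb4, Efnb2 is lowest in GlastiKO and Epha4 is highest in ECiKO, and none of the 5 genes passed the test.

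In neural cells each group had 1 library with enough cells, so the values carry no replicate error and no test was made. In astroglial-like cells the CPM ratio of GlastiKO 2 to control 2 was 2.55 for Efnb2 (exact interval 1.53 to 4.40), 2.11 for Epha5 (1.64 to 2.73), 2.03 for Efnb1 (1.06 to 4.11), 1.98 for Ephb1 (1.31 to 3.05) and 1.66 for Epha4 (1.32 to 2.11). Efna5 and Ephb4 had intervals that include 1, with ratios of 1.25 and 1.53. The ratio of ECiKO 2 to control 2 was 2.64 for Ephb1 (1.38 to 4.85) and 1.70 for Epha5 (1.08 to 2.61). Efnb2 was at 1.76 (0.631 to 4.29) and Epha4 at 1.12 (0.689 to 1.75) there.

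The astroglial-like cells of these libraries were not made up alike and had median depths of 1121, 4611 and 3846 UMIs in ECiKO 2, GlastiKO 2 and control 2. A cluster led by Cspg5, Lhx2 and Slc1a2 held 35.3% of them in ECiKO 2, 68.7% in GlastiKO 2 and 25.6% in control 2, and a cluster led by Agt, Slc6a11 and Igsf1 held 13.7%, 19.4% and 45.0%. Most UMIs of Efnb2 and Ephb1 lay in the first cluster. In it Efnb2 had 37.8, 39.9 and 38.2 CPM in ECiKO 2, GlastiKO 2 and control 2, and in the second 0, 0 and 1.86 CPM, from 2 UMIs in all. Ephb1 had 81.1, 50.2 and 60.4 CPM in the first cluster, and 0, 0 and 3.72 CPM in the second. A further cluster led by Atp13a4, Kcnt1 and Gria1 held 14, 43 and 108 astroglial-like cells and no UMI of either gene. The last, led by Btbd17, Nkain4 and Agt, held 56 cells (40.3%) in ECiKO 2 and 10 cells (2.49%) in control 2. There ECiKO 2 had 2 UMIs of Ephb1 (48.1 CPM, interval 5.82 to 174) and none of Efnb2 (up to 88.6 CPM), so at this depth these levels could not be told from those of the first cluster.

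Within the Cspg5 and Lhx2 cluster the ratio of GlastiKO 2 to control 2 was 1.04 for Efnb2 (0.615 to 1.85) and 0.831 for Ephb1 (0.539 to 1.31), against 2.55 and 1.98 over all astroglial-like cells. Epha5 and Epha4 were counted in both clusters. Epha5 had a ratio of 1.36 (0.969 to 1.95) in the Cspg5 and Lhx2 cluster and 2.34 (1.42 to 3.85) in the Agt and Slc6a11 cluster, and Epha4 1.33 (0.952 to 1.89) and 1.06 (0.650 to 1.67). The clusters were computed without ephrin and Eph genes, but from the same cells, and their comparison is a description chosen after the values were seen.

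**Figure D4:**
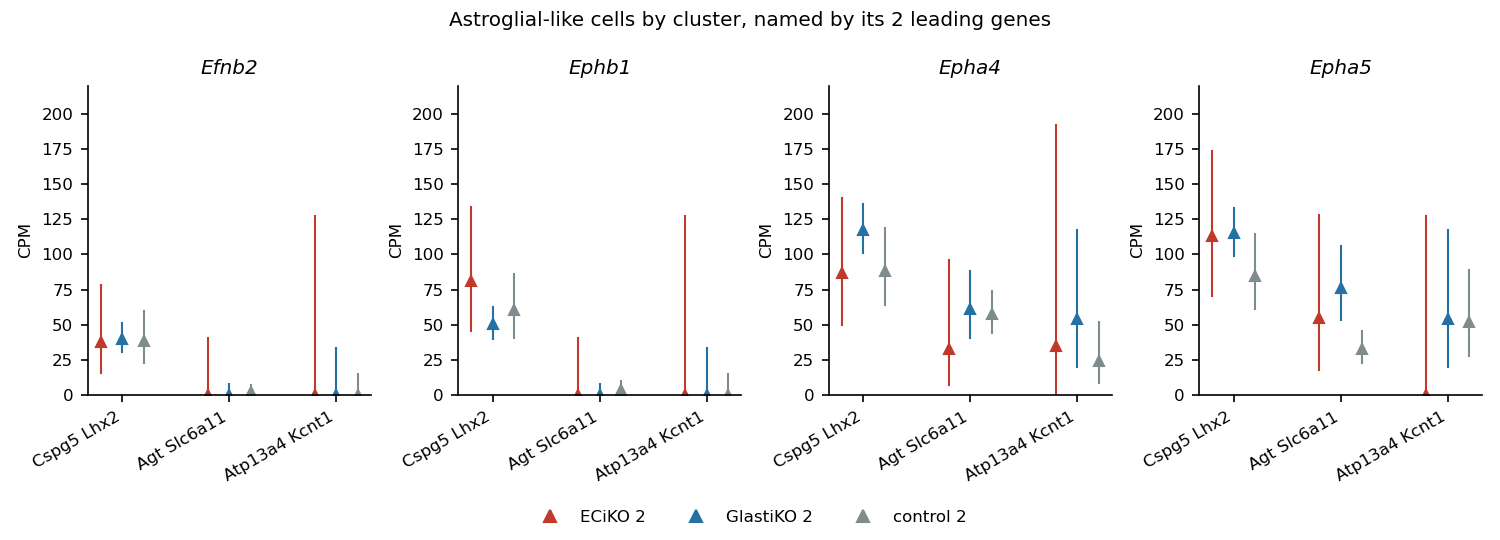
Level (CPM, y axis, linear from 0, same scale in all panels) of 4 genes in astroglial-like cells of 3 clusters, each named by its 2 leading genes, 1 point per library numbered 2 with the exact 95% Poisson interval. Efnb2 and Ephb1 are at 37.8 to 39.9 and 50.2 to 81.1 CPM in the Cspg5 and Lhx2 cluster of all 3 libraries and at 0 to 3.72 CPM in the other clusters drawn, while Epha4 and Epha5 are counted in each cluster.

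In oligodendrocyte-like cells the ratio of Ephb1 to control 2 was 0.900 in ECiKO 2 (0.817 to 0.990) and 0.877 in GlastiKO 2 (0.815 to 0.943). Here too the makeup differed: the clusters led by Kndc1 and by Enpp6, in which the levels are given above, held 4.92% and 3.04% of the class in ECiKO 2, 65.8% and 29.2% in GlastiKO 2, and 57.5% and 32.0% in control 2. Another 32.2% of the class in ECiKO 2, against 2.91% in control 2, lay in a cluster led by haemoglobin genes with a median of 645 UMIs per cell in ECiKO 2, and there Ephb1 had 118 CPM (88.2 to 154) in ECiKO 2. A cluster led by Tnni1, Wfdc18 and C030029H02Rik held 29.4% of the class in ECiKO 2 and 6.71% in control 2, with 112 and 144 CPM of Ephb1. In the haemoglobin cluster control 2 had 2 UMIs of Ephb1 in 13 cells (159 CPM, 19.3 to 576). Between ECiKO 2 and control 2 the Ephb1 intervals overlapped within each of these clusters, so no direction is read there. GlastiKO 2 was below control 2 within the Kndc1 cluster (124 CPM, 116 to 133, against 147 CPM, 136 to 159). Within the Enpp6 cluster the intervals of GlastiKO 2 and control 2 overlapped. Epha5 was at a ratio of 0.560 (0.332 to 0.939) in GlastiKO 2, from 30 against 35 UMIs, and Efna1 and Epha4 had intervals that include 1 in both groups.

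Of the other 14 ephrins and Eph receptors, Efnb3 and Ephb3 separated the glial classes most clearly. Efnb3 is a B-type ephrin known from myelinating cells and the midline. It had 535, 611 and 616 CPM in oligodendrocyte-like cells of ECiKO 2, GlastiKO 2 and control 2. Astroglial-like cells had 2.87, 5.63 and 6.53 CPM there (log2 difference -6.95 ± 0.209). Ephb3, a receptor for B-type ephrins, had 83.2, 78.9 and 83.8 CPM in astroglial-like cells of the same libraries, against 0.259, 0.188 and 0.143 CPM in oligodendrocyte-like cells (8.32 ± 0.291), and no UMI in endothelial-like cells. Ephb3 passed the filter on low counts through its astroglial-like level alone, and Efnb3 through its oligodendrocyte-like level alone. No p is given for either. Between these 2 glial classes 2 of 5 tested genes of this list were higher (Ephb3, Efna2) and 2 lower (Efnb3, Ephb2), beside 73.7% of all genes that passed. In endothelial-like cells, Ephb3 was the 1 gene tested against astroglial-like cells and was at least 9.95-fold lower, and against oligodendrocyte-like cells Efnb3 (-6.76 ± 0.468) and Efna2 (at least 2.12-fold lower) were lower, of 3 tested. Epha2, a receptor for ephrin-A1, was the 1 gene of this list tested by genotype, at 0.20 ± 0.545 for ECiKO and 0.79 ± 0.472 for GlastiKO, and did not pass.

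Of 24 signalling partners of the pathway, which carry the signal from Eph receptors or ephrins to the cytoskeleton or cleave ephrins, 6 of 19 tested were higher and 10 lower in endothelial-like cells when set against astroglial-like ones, beside 23% and 35.1% of all genes. Tiam1, a Rac exchange factor, was higher by 6.73 ± 0.356 on the log2 scale, and Sdcbp (syntenin), a PDZ adaptor of B-type ephrins, by 1.80 ± 0.270. Itsn1, a Cdc42 exchange factor, was lower, by 3.75 ± 0.490 (log2 difference -3.75), and Ngef (ephexin-1), a binding partner of EphA4, had no UMI in endothelial-like cells and 491 in astroglial-like cells, at least 13.9-fold lower. Tiam1 (145 against 11 UMIs) entered this comparison through its endothelial-like level alone. Itsn1 (5 against 578 UMIs) and Ngef entered it through their astroglial-like level alone. Against oligodendrocyte-like cells 7 of 19 were higher and 2 lower in endothelial-like cells, beside 16.3% and 30.5% of all genes, led by Tiam1 (9.37 ± 0.408), Anks1 (2.99 ± 0.378), Yes1 (2.94 ± 0.386) and Sdcbp (1.87 ± 0.253). Here too Tiam1, with 8 oligodendrocyte-like UMIs, entered through its endothelial-like level alone. Astroglial-like cells had 11 of 22 higher and 6 lower than oligodendrocyte-like cells, a share near the 73.7% of all genes that passed, led by Ngef (8.08 ± 0.266), Itsn1 (3.62 ± 0.159), Kalrn (6.99 ± 0.315) and Vav3 (6.55 ± 0.336), all of them exchange factors. Ngef, Kalrn and Vav3 had 7, 8 and 9 UMIs in oligodendrocyte-like cells and entered through their astroglial-like level alone.

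Pericyte-like cells had 9 of 11 partners lower than endothelial-like cells and 1 higher, beside 30.7% and 26.1% of all genes. Tiam1 had 2 against 1644 UMIs, and Anks1, an adaptor of Eph receptors, had 2 against 526 UMIs. Adam10, a protease that cleaves ephrins, was at -2.09 ± 0.290 on the log2 scale. Rgs3, a PDZ partner of B-type ephrins, was at -2.07 ± 0.393 (12 against 536 UMIs). Tiam1, Anks1 and Rgs3 entered this comparison through their endothelial-like level alone, which fixed their direction. The count of 9 is therefore not read as a result about the partners. In arterial-like cells Rgs3 was higher than in venous-like cells (0.90 ± 0.206, adjusted p = 0.000314) and Tiam1 (-1.05 ± 0.169), Abl1 (-1.29 ± 0.440) and Itsn1 (-1.19 ± 0.412) were lower, of 15 tested, beside 8.5% of all genes that passed. DESeq2 called Tiam1 of these 4. In arterial-like against venous-like cells Abl1 had 14 against 72 UMIs and Itsn1 had 16 against 76 UMIs. Neither could have passed the filter on low counts by its arterial-like level. By genotype none of 19 partners passed in endothelial-like cells with edgeR. The most abundant of them, Tiam1 and Adam10, were at 0.06 ± 0.292 and 0.07 ± 0.297 for ECiKO and at -0.03 ± 0.279 and -0.03 ± 0.279 for GlastiKO.

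Over the 19 class sums of at least 20 cells, the genes with the pattern most like that of 7 of the 8 genes (Efna5 had too few UMIs) were found among 7349 genes by Pearson's r of log2(CPM + 1). The highest were Adamts10 for Efnb2 (r = 0.956), Tnfaip6 for Ephb1 (r = 0.978), Adgrb3 for Epha5 (r = 0.981), Shroom1 for Efna1 (r = 0.959), Mcc for Ephb4 (r = 0.930), Anks1 for Epha4 (r = 0.946) and Hnrnph1 for Efnb1 (r = 0.920). The sums share libraries and classes, so these values describe likeness of pattern only.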

How the data were processed

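Per the labels' protocols, cells were digested for 30 minutes at 37 °C and made into 10x Chromium 3′ libraries, aligned to mm10 with Cell Ranger 5.0.0, the version in the file headers too. Cell Ranger 2.1.1 and Seurat 4 appear in the submitters' processing notes. The deposited matrices hold unnormalized UMI counts over 7433 barcodes, a number equal to the estimated cells in the labels. The labels call the 2 libraries of a group biological replicates.

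Cells with at least 300 genes and at most 20% mitochondrial UMIs were kept (6323), and 49 doublets (0.775%) called with Scrublet (scanpy 1.11.5) were removed. A cell entered a class with at least 3 markers and 30% of that class's list detected and a lead of 20 percentage points over the next list, thresholds chosen after the data were seen. Arterial-like and venous-like cells had at least 2 markers of their list and more than of the other. Leiden clusters (leidenalg 0.10.2, resolution 1, no ephrin or Eph genes) gave the same class for 82.6% of gated cells. The ending "-like" marks a class named from RNA.

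UMIs were summed per library and class (at least 20 cells) and tested over all genes with edgeR 4.0.16 (R 4.3.3): filterByExpr, TMM, quasi-likelihood F test, Benjamini-Hochberg adjustment at 0.05. Genotypes were fitted on the 6 endothelial-like sums with group as the only term (3 residual degrees of freedom), and classes with library as a block (2 residual degrees of freedom). Each SE is the absolute log2 fold change over the square root of F, and p-values lean on the spread shared across genes. For genotypes that spread is the one between libraries. For classes it is how the class difference varies over the libraries. Scripts were tested on simulated data. Intervals are exact (Poisson for a level, conditional binomial for a ratio) and cover counting error only. Floors are a set limit of 3 UMIs for a count of 0, and every "at least" rests on them. Exact intervals can allow more: for Ephb1 in endothelial-like over astroglial-like cells the upper limit of the ratio was 0.341. Alternatives were DESeq2 1.42.0, no TMM factors, no filter, each library left out, the replicate block, 2 groups only, cluster classes, cells of at least 1000 UMIs and stricter subtypes. The 8 genes and all lists were chosen with earlier results of these data known. Of the other ephrin and Eph genes and of the partners, up to 4 were named per comparison, by the smallest adjusted p among those that passed, or the 2 most abundant where none did. Positions are from GENCODE M21. All 8 genes matched the promoter table, of which 4 are shown.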

Additional observations from a re-analysis of the deposited data

How the results depend on the processing

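Efnb2 in arterial-like over venous-like cells passed under every alternative run, at 2.33 to 3.11 (log2) with a library left out. It entered the main fit through its arterial-like level alone, and it was also called with no filter on low counts. None of the 8 genes passed between genotypes in endothelial-like cells under any alternative run. Over all comparisons and alternatives, 324 log2 differences of single genes kept their direction and their side of the threshold, 12 turned, 6 lost a call and 1 gained one.

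Counts of all genes passing moved more. Between ECiKO and control in endothelial-like cells 19 genes passed, against 2 with DESeq2, 29 with the replicate block, 6 with cluster classes, 32 with cells of at least 1000 UMIs, 1 without the cells of a cluster that Plvap leads (added after seeing the data, since 31 of its endothelial-like cells were from control 1, 1 from control 2 and 2 from GlastiKO 1) and 4 to 34 with a library left out. Between GlastiKO and control 26 passed, against 2 with DESeq2, 35 with the replicate block, 13 with cluster classes, 9 without the Plvap cluster and 6 to 34 with a library left out. Deviations of same-numbered libraries from their group means correlated at 0.0385, 0.0867 and 0.0561, so the numbers are not taken to pair the samples. With DESeq2, 2080 genes passed between endothelial-like and astroglial-like cells (main 3188), 2966 between endothelial-like and oligodendrocyte-like cells (main 4650, and 2739 to 4494 with a library left out), 1477 between pericyte-like and endothelial-like cells (main 2271) and 170 between arterial-like and venous-like cells (main 462, and 166 to 481 with a library left out).

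Of the 8 genes, 4 passed between endothelial-like and astroglial-like cells, against 2 with DESeq2, 7 without the filter, 7 with cells of at least 1000 UMIs and 2 to 7 with a library left out. Between pericyte-like and endothelial-like cells 2 passed, against 4 without the filter, 1 with cluster classes and 2 to 4 with a library left out, as more or fewer of the 8 were tested. Efnb1 in astroglial-like over oligodendrocyte-like cells was at 0.86 (adjusted p = 0.158) without GlastiKO 2.

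Directions that turned were all of values that did not pass, except a ratio. For Ephb4 in ECiKO they were 0.0046 with cells of at least 1000 UMIs, 0.037 with cluster classes and 0.055 without the Plvap cluster, and -1.06 to 0.16 with a library left out. With a library left out, Efnb2 in ECiKO was at -0.24 to 0.65, Efna1 at -1.76 to 0.40 in ECiKO and -0.85 to 0.25 in GlastiKO, and Epha4 in GlastiKO at -0.0091 to 0.32. Epha4 in arterial-like cells was at -0.023 without the filter, -0.053 with subtypes 2 markers apart and -0.0079 to 0.11 with a library left out. The ratio was that of Ephb1 between GlastiKO 2 and control 2 in astroglial-like cells, 0.831 within the Cspg5 and Lhx2 cluster. The cause of these turns was not tested. Depth limits the endothelial-like sums of the libraries numbered 2, down to 38226 UMIs.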
